A study of Mus musculus with 11 samples.

Results

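RNA of the choroid plexus (CP) of mice at the onset of experimental autoimmune encephalomyelitis (EAE) was compared with that of control mice whose tissue was taken on the same day. The comparison takes 6 of the 11 array samples of the series, chosen by their labels, 3 labelled onset and 3 labelled as PBS controls. The tissue of 3 female SJL mice, 6 to 8 weeks old when the experiment began, went into each sample, and it was collected on day 14 after perfusion with cold saline. EAE pools came from mice immunized with a peptide of the myelin proteolipid protein (PLP) in complete Freund's adjuvant (CFA), with injections of pertussis toxin. Control pools came from mice given PBS in CFA and pertussis toxin on the same schedule, so that adjuvant and toxin are shared by both groups and only the peptide differs. The disease is judged by clinical signs, and the individual scores of the mice in each pool are not used here.

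The CP is a fold of vascular stroma covered by a secretory epithelium that produces the cerebrospinal fluid. Its capillaries are fenestrated, and its epithelium, joined by tight junctions, forms the barrier between blood and cerebrospinal fluid. In EAE, T cells that recognise myelin initiate inflammation of the nervous system, and the CP is 1 of the places where circulating leukocytes and signals of the periphery meet the brain.

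Gene expression was read on Illumina MouseRef-8 arrays as a signal per probe, used here as its log2 after quantile normalization. The 6 arrays had 8687 to 10221 probes above background (detection p under 0.01) and median raw signals of 256.6 to 377.5, and the number of arrays limits the precision. The defining epithelial markers Ttr, Folr1 and Kl, which encode transthyretin, a folate receptor and klotho, lay between 15.84 and 16.15 in all 6 pools. Hba-a1, a hemoglobin gene that marks red blood cells, ran from 11.16 to 13.83 in control pools and from 11.26 to 12.54 in onset pools, and the groups overlapped. Prl, the prolactin gene of the pituitary, was at 11.09, 12.96 and 10.71 in control pools 1 to 3 and at 7.78, 9.07 and 14.17 in onset pools 1 to 3, so that its level differed between pools of 1 group. Onset pool 3 was very close to remission pool 3, with 0 of 10012 probes above background in both differing by more than 1 on the log2 scale, and counts without these pools are given as well. Because the tissue was measured in bulk, fewer cells of a type and less RNA per cell cannot be told apart.

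Compared with control, 254 probes increased and 37 decreased at EAE onset, at a Benjamini-Hochberg adjusted p under 0.05 in limma, which is 1.06% and 0.154% of 23978 probes. When arrays were scaled by their medians instead of by quantiles, 322 were higher and 4 lower, and the share of calls that were higher was 98.8% rather than 87.3%. Taking 1 probe for each of 15943 named genes, 219 genes (1.37%) were higher and 33 (0.207%) lower, and at an unadjusted p under 0.05 the figures were 997 (6.25%) and 738 (4.63%). The changes upward were also larger, since 79 of the higher probes and 2 of the lower ones moved by more than 1 on the log2 scale. The counts rest on single pools. They fell to 42 higher and 0 lower without control pool 1, to 40 and 1 without control pool 2, to 93 and 6 without onset pool 1 and to 101 and 5 without onset pool 3, were 184 and 21 without onset pool 2, and were 210 and 27 without onset pool 3 and remission pool 3. Of the higher probes 31, and of the lower probes 0, were called in each of the 6 fits that leave out 1 control or onset pool.

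**Figure D1:**
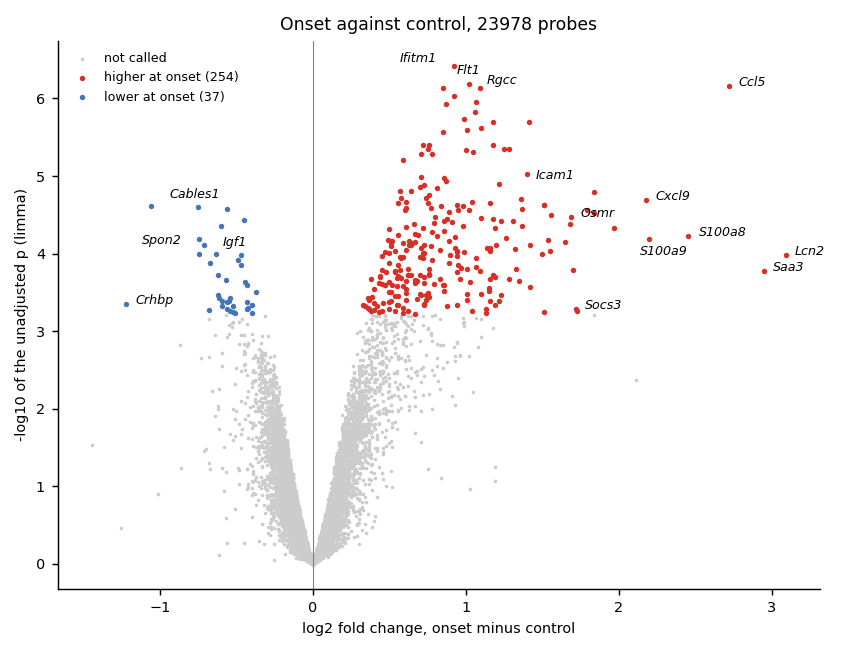
Each point is 1 of 23978 probes, with the log2 fold change of onset minus control on the x axis and the −log10 of the unadjusted limma p on the y axis. The 254 probes called higher reach a log2 fold change of 3.09 (Lcn2), and the 37 called lower reach -1.22 (Crhbp).

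The largest increases were those of secreted defence proteins and chemokines. Lcn2, lipocalin 2, a protein that binds bacterial iron carriers, had log2 signals of 10.29, 8.95 and 10.90 in control pools 1 to 3 and of 13.40, 13.13 and 12.86 in onset pools 1 to 3. All onset pools lay above all control pools, but the control pools themselves spread over almost 2 log2 units, and the increase of 3.09 (SE 0.55, 8.49-fold, 95% interval 3.68 to 19.5, adjusted p = 0.0182) was called in only 1 of the 6 fits without a pool. Saa3, an acute phase serum amyloid, behaved likewise, at 9.14, 8.42 and 10.30 in control pools and 12.28, 12.00 and 12.41 in onset pools (increase 2.95, SE 0.56, adjusted p = 0.0241). Control pool 2 was the lowest control pool for both genes. Ccl5, a chemokine that attracts T cells and monocytes, was above background in no control pool (8.14, 7.94 and 8.59) and in every onset pool (11.40, 10.66 and 10.77). It was at least 3.72-fold higher (adjusted p = 0.00351), and its call held in all 6 fits. S100a8 and S100a9, the 2 subunits of calprotectin, were at 11.01, 9.81 and 11.41 and at 10.64, 9.56 and 10.97 in control pools and at 13.65, 13.11 and 12.81 and at 13.24, 12.29 and 12.25 in onset pools. S100a8 rose by 2.45 (SE 0.41, adjusted p = 0.0153), and S100a9 rose by 2.20 (SE 0.38, with an adjusted p of 0.0160). Cytip, which restrains integrin adhesion in leukocytes, rose by 1.79 (SE 0.28, adjusted p = 0.0107). Fpr2, a formyl peptide receptor of phagocytes, was at least 2.39-fold higher. The chitinase-like genes Chil3 and Chil4 were at least 1.67-fold and at least 1.53-fold higher, and Chil1 rose by 1.68 (SE 0.27, adjusted p = 0.0129). Chil4 has a second probe whose log2 fold change was -0.12 and which was not called.

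Some increases were smaller and far tighter between pools. Ifitm1, an interferon-induced membrane protein that restricts virus entry, was at 14.46, 14.42 and 14.47 in control pools and at 15.53, 15.25 and 15.33 in onset pools. The groups stood far apart relative to their spread (increase 0.92, SE 0.10, 1.89-fold, 95% interval 1.64 to 2.18, adjusted p = 0.00351). Flt1, a receptor for vascular endothelial growth factor, was at 11.80, 11.61 and 11.63 in control pools and at 12.55, 12.78 and 12.76 in onset pools (increase 1.02, SE 0.11, adjusted p = 0.00351). Its other probe gave 0.31 and was not called. Of 60 genes with several probes and a call, 56 had a probe that was not called. In some of these the probes moved alike (C4a 1.10 and 1.19, Tgfbi 0.80 by both). The count therefore does not measure disagreement in size. The other probes of Ifitm1 gave 0.19 and 0.13, and those of Robo4 (0.03), Slc43a3 (-0.07), Il7r (-0.08), Tnfaip2 (-0.21) and Cxcl12 (0.31 and 0.04) were not called either. Nfkbiz, a nuclear regulator of NF-kB target genes, was at 10.60 or 10.61 in every control pool and at 11.63, 11.41 and 11.39 in onset pools. These 3 genes are among 27 named genes whose call held in all 6 fits without 1 pool. The other members of that set include the endothelial genes Adgrl4, Robo4, Eng, Ptprb, Podxl and Gja4, with increases between 0.73 and 1.01. They also include Icam1, Cxcl12, Irf8, Ifitm2, Pdgfra, Rgcc, Slc43a3, Slco2b1, Clec2d, Uba7, H2-Q5 and Bcl2a1d. The leukocyte genes Jak3, Il7r, Parvg and Csf2rb2, also in the set, were above background in no control pool. Jak3 was at least 1.41-fold higher, but for Il7r, Parvg and Csf2rb2 the lower bound of the fold was under 1. Il7r and Csf2rb2 were above background in only 2 of 3 onset pools. The largest increases and the most stable calls were mostly different genes, and Ccl5 alone among the 15 largest increases was in both sets.

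**Figure D2:**
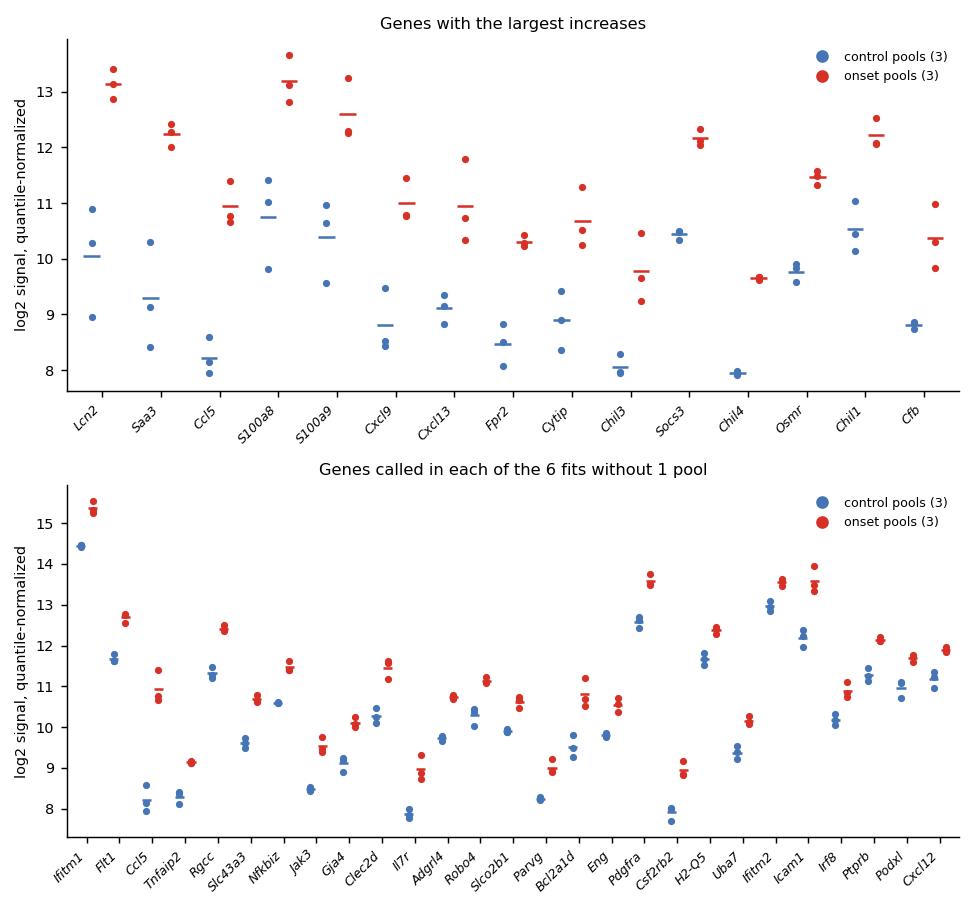
Quantile-normalized log2 signals of each control and onset pool (points) with the group mean (bars) for the 15 largest increases and for the 27 named genes called in each of the 6 fits without 1 pool. Control pools of Lcn2 spread from 8.95 to 10.90, while those of Ifitm1 spread from 14.42 to 14.47.

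Genes were grouped by function in 59 lists and 27 families of related symbols, 86 groups in all, some sharing members. Of these, 43 held a gene called higher, 8 a gene called lower and 38 no call, and 86 of the higher and 13 of the lower genes were in no group. The groups plotted and described in detail were chosen after their values were seen. The median log2 fold change of all named genes was -0.02.

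Markers of neutrophils had many calls as analysed here. Of 22 measured genes of neutrophil granules and calprotectin, 12 were higher and 0 lower, with a median of 1.05. Ngp, a neutrophil granule protein, was at 8.43, 7.96 and 8.59 in control pools, below background, and at 9.83, 9.73 and 9.19 in onset pools, at least 1.45-fold higher (adjusted p = 0.0157). Ltf, lactoferrin, rose by 1.42 (SE 0.25, adjusted p = 0.0164), and the peroxidase gene Mpo was at least 1.90-fold higher. Camp, a cathelicidin, had a difference of 1.07 (SE 0.24) that did not pass (adjusted p = 0.0533). The mean log2 signal of the list was 8.71, 8.42 and 8.80 in control pools and 9.94, 9.55 and 9.41 in onset pools, highest in onset pool 1. The list had 0 calls without control pool 1 or control pool 2, 1 without onset pool 1, 7 without control pool 3, 8 when onset pool 2 was left out, and 4 with neqc background correction and 3 with a trended and robust eBayes, where the T cell list had 6 and 8 of 24 and the endothelial list 9 and 11 of 33. The acute phase list, which shares Lcn2, Lrg1 and Hp with the neutrophil list, had 7 of 26 genes higher and a median of 0.30, with 0 calls once control pool 1, control pool 2 or onset pool 1 was left out, and with 4 and 2 calls when onset pool 2 or 3 was left out, respectively. Its member Serpina3n, a protease inhibitor, showed a difference of 2.11 that did not pass (SE 0.60, adjusted p = 0.158), with control pools from 8.27 to 10.53.

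Of 24 T cell genes 8 were higher and 0 lower, with a median of 0.20. Cd3e, a chain of the T cell receptor complex, was at 8.18, 8.06 and 8.57 in control pools and at 9.58, 9.10 and 9.07 in onset pools, at least 1.15-fold higher (adjusted p = 0.0107). Cd3d and Cd3g, chains of the same complex, were at least 1.23-fold and at least 1.07-fold higher, and Ctla4, an inhibitory receptor of activated T cells and above background in 2 of 3 onset pools, at least 1.02-fold. The defining coreceptor genes Cd4 and Cd8a were above background in no pool of either group. The T cell calls numbered 1 without control pool 1 or control pool 2 and 4 to 7 without each of the others. Monocyte and macrophage genes gave 3 calls of 26 (median 0.16), Cd14, a coreceptor for bacterial lipopolysaccharide (increase 1.14, SE 0.20), Ly6c1 (1.32, SE 0.23) and the lysozyme gene Lyz2 (1.23, SE 0.25, with 0.10 by its other probe). Ly6c1 is also made by endothelial cells. The 3 calls became 0 without control pool 1, control pool 2 or onset pool 3, 1 without onset pool 1, 1 with neqc background correction or a trended and robust eBayes and 5 under median scaling. In B and plasma cells 0 of 14 genes were called in either direction by limma (at an unadjusted p under 0.05, 2 were higher and 0 lower), with a median of 0.02. The phagocyte oxidase and leukocyte actin list had 7 of 19 genes higher and a median of 0.54. Its called members were Cyba, a membrane subunit of the NADPH oxidase, Ncf4 and Rac2, further parts of that complex, and the actin regulators and leukocyte proteins Hcls1, Was, Coro1a and Laptm5. Without control pool 1 the list had 0 calls, with 2 without control pool 2 or onset pool 1 and 4 without onset pool 3. Plek, a platelet and leukocyte gene of the same list, went from 10.11 and 10.18 in control pools 2 and 3 to 7.73 in control pool 1, which lay among the onset pools, and was not called.

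**Figure D3:**
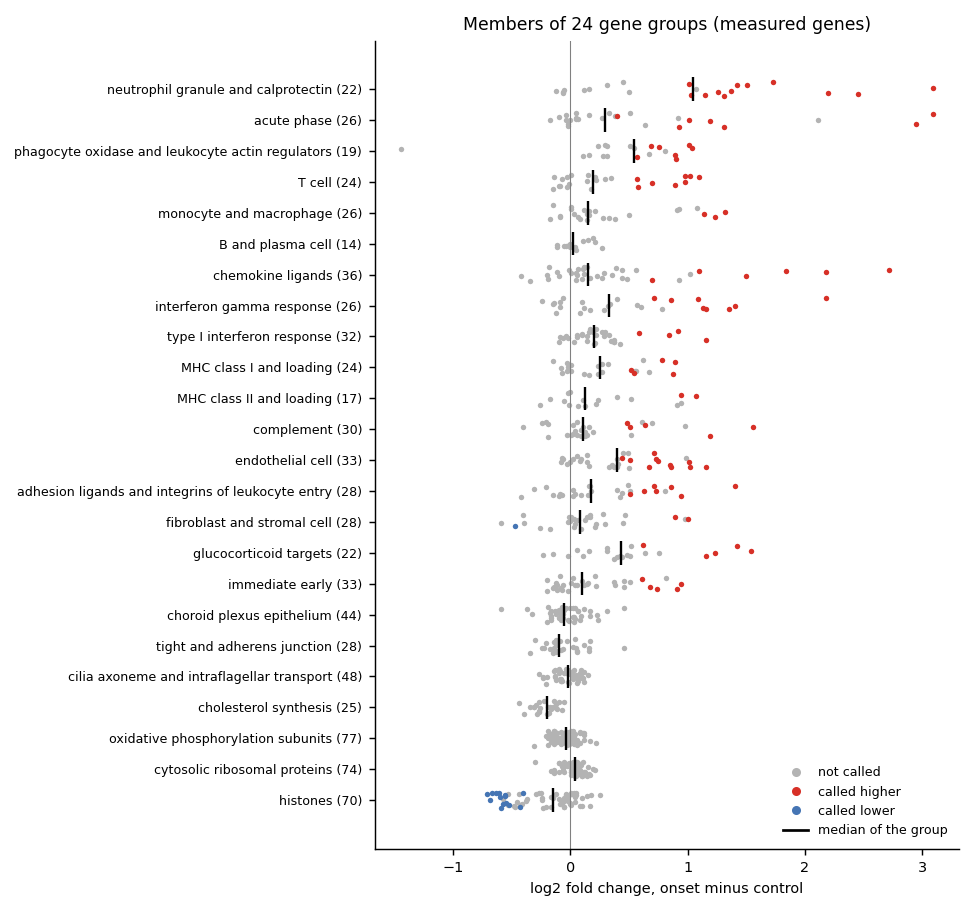
Each point is a measured gene of 1 of 24 gene groups, placed by its log2 fold change of onset minus control (number of genes in brackets), with the median of the group as a black line. Neutrophil genes have a median of 1.05, cholesterol synthesis -0.20 and histones -0.15.

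Endothelial genes were the next group with many calls. Of 33 endothelial genes 11 were higher and 0 lower, with a median of 0.40, and 6 of the 11 calls held in all 6 fits without 1 pool. Ramp2, a coreceptor for adrenomedullin, was at 12.20, 11.80 and 12.36 in control pools and at 13.12, 13.39 and 13.32 in onset pools (increase 1.16, SE 0.18, adjusted p = 0.0107). Robo4, a guidance receptor of vessels, rose by 0.85 (SE 0.11), and Ptprb, a receptor phosphatase that acts on Tie2, by 0.86 (SE 0.12). Cdh5, the cadherin that defines endothelial junctions, had a difference of 0.36 (SE 0.09) that did not pass (adjusted p = 0.0794). Other lists of vessel biology had few calls, with 2 of 25 vascular growth factor genes higher and 0 lower (median 0.00, with 6 and 4 in these directions when p was not adjusted) and 2 of 25 genes of hemostasis higher (median -0.01). The mean of the endothelial list was 9.50, 9.35 and 9.53 in control pools and 9.81, 9.91 and 9.91 in onset pools, and here onset pool 1 was the lowest onset pool. Among 28 genes of leukocyte entry 7 were higher (median 0.18), among them Icam1, a ligand of leukocyte integrins, at 12.23, 11.96 and 12.39 against 13.95, 13.34 and 13.48. Selp, P-selectin, was at least 1.26-fold higher. The 7 calls fell to 2 without control pool 1, control pool 2 or onset pool 1 and to 4 without onset pool 3, and the 11 endothelial calls to 6 without control pool 1 or 2 and to 7 without onset pool 3. Vcam1, the ligand of the integrin VLA-4, had a difference of 0.44 (SE 0.13) that did not pass (adjusted p = 0.168). Pdgfra, a growth factor receptor of stromal fibroblasts, rose by 1.00 (SE 0.13, adjusted p = 0.0050), but the stromal list as a whole gave 2 higher genes of 28, the other being Thy1, which T cells make too, and 1 lower (Igf1), and 0 of 30 collagens and 0 of 15 mural cell genes were called in either direction (at an unadjusted p under 0.05, 5 and 4 were higher, 1 and 0 lower).

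Interferon-responsive genes formed another group. Of 26 genes of the interferon gamma response 8 were higher (median 0.33). Irgm1, a GTPase that acts against intracellular pathogens, was at 9.86, 9.79 and 10.11 in control pools and at 11.32, 11.28 and 11.19 in onset pools (increase 1.35, SE 0.26, adjusted p = 0.0279), and its other probe gave 0.11 without a call. The related GTPases Irgm2, Igtp, Ifi47 and Gbp3 rose by 0.86 to 1.16. Cxcl9, a chemokine induced by interferon gamma that attracts activated T cells, rose by 2.18 (SE 0.33, adjusted p = 0.0107). Of 32 type I interferon genes the 4 called higher were all Ifitm genes (Ifitm1, Ifitm2, Ifitm3 and Ifitm6), which are close relatives, and the count was 2 without control pool 2. Uba7, an interferon-induced gene outside this list, rose by 0.78 (SE 0.10, adjusted p = 0.005) and kept its call in each of the 6 fits. MHC class I and its loading genes gave 5 of 24 (median 0.26), H2-T23 and H2-Q2, whose families share sequence, and the immunoproteasome subunits Psmb8, Psmb9 and Psmb10. The other probes of H2-T23 (0.19) and H2-Q2 (-0.09) were not called. MHC class II gave 2 of 17, H2-Ab1 (increase 0.94, SE 0.17) and Cd74, the invariant chain (1.07, SE 0.20). Complement gave 5 of 30, led by Cfb, a factor of the alternative pathway, which was at least 2.52-fold higher, with C4a (increase 1.19, SE 0.25), C1qc, C2 and the inhibitor Serping1. Without control pool 1 or control pool 2 the interferon gamma list kept 2 calls and the MHC and complement lists 0, and without onset pool 1 the 4 lists had 3, 2, 0 and 1 calls and without onset pool 3, 4, 3, 1 and 1. H2-Q5, an MHC class I gene outside these lists, kept its call in each of the 6 fits (increase 0.71, SE 0.09, adjusted p = 0.005). Leaving out onset pool 2 took MHC class I to 2 calls, and leaving out control pool 3 took complement to 8.

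Chemokine ligands gave 6 of 36 genes higher (median 0.16), and beside Ccl5 and Cxcl9 these were Cxcl13, which attracts B cells (increase 1.84, SE 0.27), Ccl19 (at least 1.44-fold), Cxcl12 (0.70, SE 0.10) and Cxcl1. Cxcl1, which attracts neutrophils, was at 9.56, 9.32 and 10.10 in control pools and at 11.48, 10.73 and 11.27 in onset pools (increase 1.50, SE 0.27, adjusted p = 0.0179). Chemokine calls fell to 2 without control pool 1 or 2 and were 5 to 9 without the others. In the interleukin 6 and oncostatin M family 4 of 18 genes were higher, with 0 calls without control pool 1 or 2, 1 without onset pool 1 or 3 and 2 without onset pool 2. Osmr, the oncostatin M receptor, was at 9.90, 9.58 and 9.83 and at 11.48, 11.32 and 11.58 (increase 1.69, SE 0.27, adjusted p = 0.0121). Socs3, a feedback inhibitor of that signalling, was also tight within groups (10.34, 10.48 and 10.49 against 12.32, 12.12 and 12.04) but its SE of 0.37, which takes in the remission and relapse pools, left an adjusted p of 0.0458, and its call was lost in each of the 6 fits. Stat3, the transcription factor downstream of these receptors, had a difference of 0.62 (SE 0.16) that did not pass (adjusted p = 0.107).

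Genes known to respond to glucocorticoids gave 5 calls of 22, all higher, with a median of 0.43, and 19 of the 22 log2 fold changes were above 0. Fkbp5, a cochaperone of the glucocorticoid receptor, was at 9.39, 8.91 and 9.28 in control pools and at 10.57, 10.84 and 10.79 in onset pools (increase 1.54, SE 0.26, adjusted p = 0.0160). Plin4, a lipid droplet protein, rose by 1.42 (SE 0.28), Sult1a1, a sulfotransferase, by 1.16 (SE 0.24), and Hsd11b1, the enzyme that regenerates active glucocorticoid, by 0.62 (SE 0.12). Map3k6 was at least 1.35-fold higher. Mt2, a metallothionein that binds zinc and copper, was the 1 called of 32 genes of metallothioneins and oxidative stress (increase 1.20, SE 0.21, adjusted p = 0.0164). That is 3.12% against 1.37% of all named genes, and the call was lost without control pool 1 or 2 or onset pool 1 or 3. The 5 calls of the glucocorticoid list fell to 1 without control pool 1, to 0 without control pool 2 or onset pool 3 and to 2 without onset pool 1 or 2, and numbered 2 with neqc background correction or with a trended and robust eBayes and 5 under median scaling. Immediate early genes gave 5 of 33, Klf2, Junb, Klf4, Ier3 and Ccn2, with increases of 0.61 to 0.94 and a median of 0.10 for the list, and 1 was called without control pool 1, control pool 2 or onset pool 1 and 2 without onset pool 3. Lists of inflammatory signalling and cell death also had shares of higher genes above the 1.37% of all named genes. The NF-kB list gave 3 higher genes of 21 (14.3%), Tnfaip2, Nfkbiz and the deubiquitinase gene Tnfaip3 (increase 0.73, SE 0.14), and 1 lower, Tnfaip8. The interleukin 1 and 18 list gave 4 of 22 (18.2%), among them Il1b, which encodes interleukin 1 beta and was at least 1.33-fold higher, and Irak3, an inhibitor of the receptor pathway, which was at least 1.48-fold higher. Il1b lay at 8.56, 8.12 and 8.87 in control pools, below background, and at 9.47, 9.67 and 9.25 in onset pools. Of 27 genes of cell death and survival 5 (18.5%) were higher, namely Bcl2a1a, Bcl2a1b and Bcl2a1d, copies of a survival gene that share sequence (increases 1.22 to 1.37), Casp4, an inflammatory caspase, and Gsdmd, which encodes the pore protein gasdermin D. The other probes of Casp4 (0.30) and Gsdmd (0.13) were not called. Pfkfb3, a regulator of glycolysis, was at least 1.18-fold higher, and Timp1, an inhibitor of matrix proteases, was at 9.35, 8.91 and 9.67 against 10.85, 10.26 and 10.49 (increase 1.22, SE 0.26, adjusted p = 0.0401). None of these lists kept more than 2 of its calls without control pool 1 or control pool 2.

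Enzymes of several other families were also called. Of 73 cytochromes P450, 3 (4.11%) were higher and 0 lower, against 1.37% and 0.21% of all named genes, with a median of -0.02. The 3 calls became 0 without control pool 1, control pool 2 or onset pool 1. Among them Cyp1b1 and Cyp26b1, which act on steroids and retinoic acid, rose by 1.18 (SE 0.19) and 1.33 (SE 0.25). Xdh, xanthine dehydrogenase, rose by 1.55 (SE 0.28), and Acer2, a ceramidase of the Golgi, by 1.36 (SE 0.20), both in no list. Further genes in no list were Ubd, a ubiquitin-like protein, at least 1.53-fold higher, and Ms4a6d, a membrane protein of myeloid cells (1.51, SE 0.23). Ltbp2, a protein of the extracellular matrix, was at least 2.07-fold higher. Others were Clec2d, the ligand of an inhibitory NK receptor (1.18, SE 0.14), and Fcgr2b, the inhibitory Fc receptor (1.16, SE 0.21). Tgm2, a transglutaminase (1.10, SE 0.23), and Tgfbi, a matrix protein induced by TGF-beta (0.80, SE 0.13), were also in no list. Rgcc, a regulator of the cell cycle that responds to complement, was at 11.48, 11.20 and 11.29 against 12.40, 12.50 and 12.35 (increase 1.09, SE 0.12, adjusted p = 0.00351). Its groups were clearly apart. Genes in no list, Xdh, Acer2 and the others of this paragraph except Clec2d and Rgcc, were chosen after their values were seen.

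The genes lower at onset were fewer and moved less. Crhbp, a binding protein of corticotropin-releasing hormone, was at 9.44, 10.59 and 9.59 in control pools and at 8.20, 8.98 and 8.78 in onset pools, and fell by 1.22 (SE 0.26, adjusted p = 0.0429). Control pool 2 was the highest, as it was among control pools for Prl, and the part of pituitary RNA in this result was not tested. Cables1, a regulator of cyclin-dependent kinases, was at 11.79, 11.90 and 11.69 against 10.97, 11.02 and 11.15 (fell by 0.75, SE 0.12, adjusted p = 0.0107), while its other probe gave 0.14 and was not called. Car3, a carbonic anhydrase of low activity, and Spon2, a protein of the extracellular matrix, were above background in no onset pool and were at least 1.13-fold and at least 1.45-fold lower. Spon2 was above background in all 3 control pools but Car3 in only 1. The other probe of Car3 gave -0.21 and was not called. Lin7b, a scaffold protein of cell polarity and synapses, was lower by 2 of its 3 probes. Igf1, insulin-like growth factor 1, was at 9.60, 9.66 and 9.46 against 9.07, 9.15 and 9.09 (fell by 0.47, SE 0.08, adjusted p = 0.0182). The remaining named genes include Gjb2, the gap junction protein connexin 26 (0.02 by its other probe), Npr3, the clearance receptor of natriuretic peptides, Faah, which degrades endocannabinoids, Ppargc1b, a coactivator of mitochondrial genes, Gnai1, an inhibitory G protein subunit, and B4galt6, which makes lactosylceramide, with log2 fold changes between -0.56 and -0.42. A probe of Pgap6 was lower (-0.54) while the brighter one gave 0.04. Kcne2, a potassium channel subunit of the CP epithelium, was at 12.57, 12.80 and 12.34 against 11.92, 11.69 and 12.05, and its difference of -0.68 (SE 0.15) did not pass (adjusted p = 0.0539). The neuronal genes Chrna4 and Nefh had differences of -0.87 and -0.64 that did not pass (adjusted p = 0.0858 and 0.0716).

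**Figure D4:**
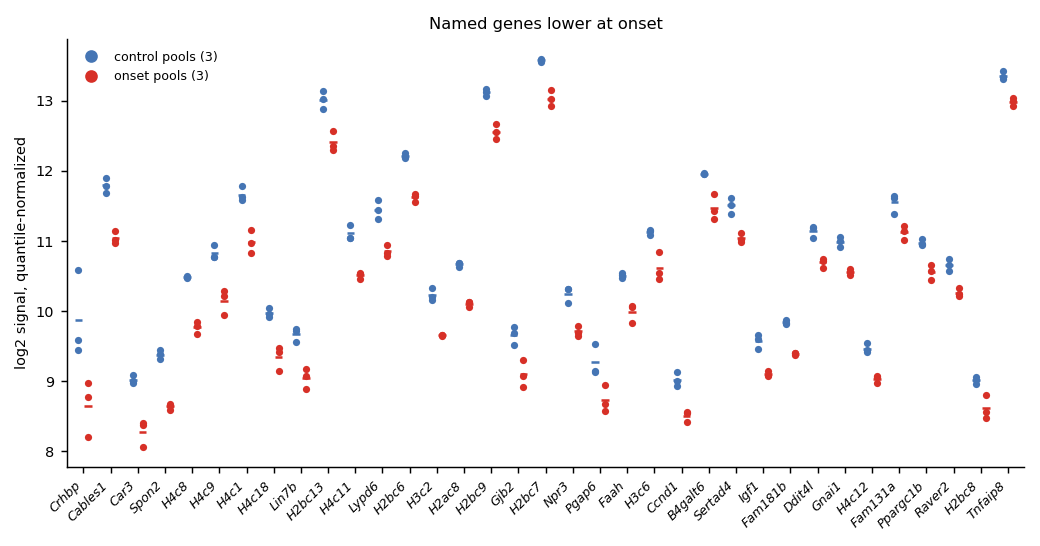
Quantile-normalized log2 signals of each control and onset pool (points) with group means (bars) for the named genes with a probe called lower at onset, ordered by fold change from Crhbp (-1.22) to Tnfaip8 (-0.37).

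Histone genes made up much of this side. They package DNA in nucleosomes, and the clustered, replication-dependent ones are made chiefly during DNA replication. How well these arrays read such RNA, and whether its signal follows replication here, was not tested. Of 70 measured histone genes 14 were lower and 0 higher, with a median of -0.15. The called genes were 6 of 12 for histone H4, 5 of 18 for H2B, 2 of 13 for H3, 1 of 18 for H2A and 0 of 9 for H1, with log2 fold changes from -0.71 to -0.40. H4c8 was at 10.47, 10.49 and 10.50 in control pools and at 9.68, 9.85 and 9.79 in onset pools (fell by 0.71, SE 0.12, adjusted p = 0.0164). H2ac8 was at 10.68, 10.63 and 10.69 against 10.06, 10.13 and 10.13 (fell by 0.56, SE 0.09, adjusted p = 0.0107), and its call, which held in 5 of the 6 fits without 1 pool, was the most stable of the lower ones. Histone genes are near-identical in sequence, so their probes may not tell them apart and the 14 are not 14 separate measurements. The 14 calls became 0 without control pool 1, 1 without control pool 2, onset pool 1 or onset pool 3, 8 without control pool 3 or onset pool 2, 6 with neqc background correction, and 0 under median scaling, where all 14 still lay below 0 with a median of -0.50. Markers of the cell cycle gave 1 call of 50, which at 2.0% is near the 1.37% higher among all named genes. This was Prc1, a spindle protein, which rose by 0.83 (SE 0.16, adjusted p = 0.0270). Its call was lost without control pool 1, control pool 2 or any 1 of the onset pools, and with neqc background correction.

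Promoter sequences of RefSeq on the GRCm38.p6 build, 250 bases before to 50 after each gene start, were found for 170 of the 222 named genes with a higher probe and for 28 of the 35 with a lower probe. In these, 13 short patterns were searched on both strands, and those reported first were picked after the shares were seen, so the shares are a description with no test. GAAA followed after any 2 bases by GAAA, the core of interferon response elements, was in 10.5% of 210 promoters of higher genes and in 3.44% of all 32851 promoters. TTCNNNGAA, the pattern of STAT factors, was in 13.8% against 8.30%, and GGGA followed after any 1 base by TTTCC, an NF-kB pattern, in 1.43% (3 promoters) against 0.411%. TATAAA, the TATA box, was in 9 of 15 promoters of lower histone genes (60.0%) and in 13.6% of all promoters, and ATTTGCAT, the octamer, in 3 of those 15 (20.0%) against 1.74%. In the same 15 promoters CCAAT was in 10 (66.7%) against 37.4% of all, and the C/EBP pattern in 3 (20.0%) against 2.08%. Matches on both strands count, so a match may face a neighbouring gene, and overlap between these promoters was not tested. Among higher genes other patterns were at or below the share of all promoters, such as CCAAT (29.0% against 37.4%), GGTTCTC (2.86% against 4.51%) and the glucocorticoid response element (1.90% against 1.84%), or somewhat above it. These were TATAAA (20.0% against 13.6%), the degenerate NF-kB pattern (12.4% against 8.46%), which holds every match of the strict one, TTCCNGGAA (1.90% against 1.15%), which lies within TTCNNNGAA, AGGAAGT or CGGAAGT of ETS factors (21.0% against 15.1%), TCACNCCAC of sterol response elements (1.90% against 1.24%), and TTGCACAA, TTGCATAA, TTGCGCAA or TTGCGTAA of C/EBP factors (3.81% against 2.08%).

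Promoters of 4 genes described above show where these patterns lie, printed 5′ to 3′ on the strand of the gene. Matches of the patterns named for each gene are in capitals, and matches of the other patterns searched are not marked. They are Irgm1 (chr11:48871371-48871670, minus strand) with 2 overlapping matches of the interferon pattern, Icam1 (chr9:21015690-21015989, plus strand) with TTCNNNGAA and, after the start, TATAAA, Cxcl1 (chr5:90890995-90891294, plus strand) with the NF-kB pattern, and the histone gene H2ac8 (chr13:23571171-23571470, minus strand) with TATAAA and ATTTGCAT, both on the opposite strand. The first base of the match lies 30 bases before the start in Irgm1, 42 for TTCNNNGAA in Icam1 and 71 in Cxcl1. In H2ac8 the matches begin 142 (TATAAA) and 128 (ATTTGCAT) bases before the start and read away from the gene. Whether they serve H2ac8 or a neighbouring gene was not tested. A match in letters does not show that a factor binds.
Irgm1: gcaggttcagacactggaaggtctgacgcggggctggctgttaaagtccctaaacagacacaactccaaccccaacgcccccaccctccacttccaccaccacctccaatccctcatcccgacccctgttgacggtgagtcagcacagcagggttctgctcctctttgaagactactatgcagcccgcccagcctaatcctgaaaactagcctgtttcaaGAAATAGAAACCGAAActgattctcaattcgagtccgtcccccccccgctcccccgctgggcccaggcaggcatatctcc
Icam1: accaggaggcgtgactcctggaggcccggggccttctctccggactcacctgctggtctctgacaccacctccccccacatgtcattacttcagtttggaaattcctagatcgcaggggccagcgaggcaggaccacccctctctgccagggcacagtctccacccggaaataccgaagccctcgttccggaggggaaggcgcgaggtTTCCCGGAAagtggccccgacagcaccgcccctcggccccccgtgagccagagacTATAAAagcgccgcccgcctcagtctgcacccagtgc
Cxcl1: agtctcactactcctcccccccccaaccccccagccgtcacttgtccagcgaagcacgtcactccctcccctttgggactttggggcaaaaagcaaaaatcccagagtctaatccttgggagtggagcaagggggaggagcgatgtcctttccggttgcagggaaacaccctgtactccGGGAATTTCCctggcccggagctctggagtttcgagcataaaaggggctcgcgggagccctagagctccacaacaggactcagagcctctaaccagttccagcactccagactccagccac
H2ac8: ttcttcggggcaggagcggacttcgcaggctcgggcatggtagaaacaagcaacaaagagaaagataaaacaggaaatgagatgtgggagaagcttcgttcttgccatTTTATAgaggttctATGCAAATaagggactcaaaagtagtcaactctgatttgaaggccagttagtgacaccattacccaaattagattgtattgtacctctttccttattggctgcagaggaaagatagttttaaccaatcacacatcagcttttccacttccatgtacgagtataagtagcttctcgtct

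No gene of the epithelial list passed the test. Of 44 genes of the CP epithelium 0 were called higher or lower by limma (at an unadjusted p under 0.05, 4 were higher and 3 lower), and their log2 fold changes ran from -0.59 to 0.46 with a median of -0.06. Kcne2, given above, is not in this list. The largest differences were those of Trpv4, a cation channel that responds to osmotic change (-0.59, SE 0.15, adjusted p = 0.101), Slco1c1, a thyroid hormone transporter (-0.37, SE 0.12, adjusted p = 0.233), and Cldn1, a claudin of tight junctions (0.46, SE 0.16, adjusted p = 0.268). The mean of 23 of these 44 genes lay over 15 on the log2 scale, where the highest value of any probe was 16.15, so a change near that ceiling may be compressed. Tight and adherens junction genes (0 of 28, median -0.10), genes of cilia (0 of 48, median -0.02) and ABC transporters (0 of 31, median 0.00) had no call in either direction by limma, and at an unadjusted p under 0.05, 1, 0 and 2 genes were higher and 4, 5 and 1 lower. Of 329 genes with symbols of solute carriers 5 (1.52%) were higher, close to the 1.37% of all named genes, and their number was 2 or 3 in each fit that left out control pool 1 or 2 or an onset pool. Among them were Slc9a3r2, which encodes a scaffold protein rather than a transporter, Slc43a3, a nucleobase transporter, which rose by 1.07 (SE 0.12), Slco2b1, an organic anion transporter (0.72, SE 0.09), and the glucose transporter gene Slc2a3. Trf, transferrin, which both CP epithelium and oligodendrocytes make, was at 13.88, 13.89 and 13.96 against 14.49, 14.54 and 14.53 (increase 0.61, SE 0.13, adjusted p = 0.0398), and its call was lost in each of the 6 fits without 1 pool.

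Lists of housekeeping machinery had 0 calls, which at 21 to 77 genes a list is near the share of all named genes (1.37% higher, 0.207% lower). Subunits of oxidative phosphorylation (0 of 77, median -0.04), cytosolic ribosomal proteins (0 of 74, median 0.04), mitochondrial ribosomal proteins (0 of 77, median -0.05), the unfolded protein response (0 of 29, median -0.06) and heat shock proteins (0 of 21, median -0.04) were called in neither direction by limma. Their counts at an unadjusted p under 0.05 were 0, 0, 0, 1 and 1 higher and 1, 0, 7, 1 and 0 lower, and the 7 of 77 mitochondrial ribosomal genes were a larger share than the 4.63% of all named genes. Cholesterol and fatty acid synthesis genes showed a uniform small shift without a call. All 25 measured genes had a log2 fold change below 0, from -0.44 to -0.05 with a median of -0.20, and 11 were lower and 0 higher at an unadjusted p under 0.05, against 4.63% of named genes lower. The mean of the list was 11.17, 11.20 and 11.10 in control pools and 10.86, 11.02 and 10.95 in onset pools. These did not overlap, but a gap between list means is not particular to this list. The vascular growth factor list, with a median of 0.00, had 10.22, 10.21 and 10.16 against 10.24, 10.25 and 10.27. Fdps, farnesyl diphosphate synthase, had a difference of -0.31 (SE 0.09, adjusted p = 0.193), Scd1, a fatty acid desaturase, of -0.44 (SE 0.14, adjusted p = 0.235) and Cyp51, a demethylase of lanosterol, of -0.39 (SE 0.14, adjusted p = 0.315). Under median scaling 23 of the 25 lay below 0 and 2 above.

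**Figure D5:**
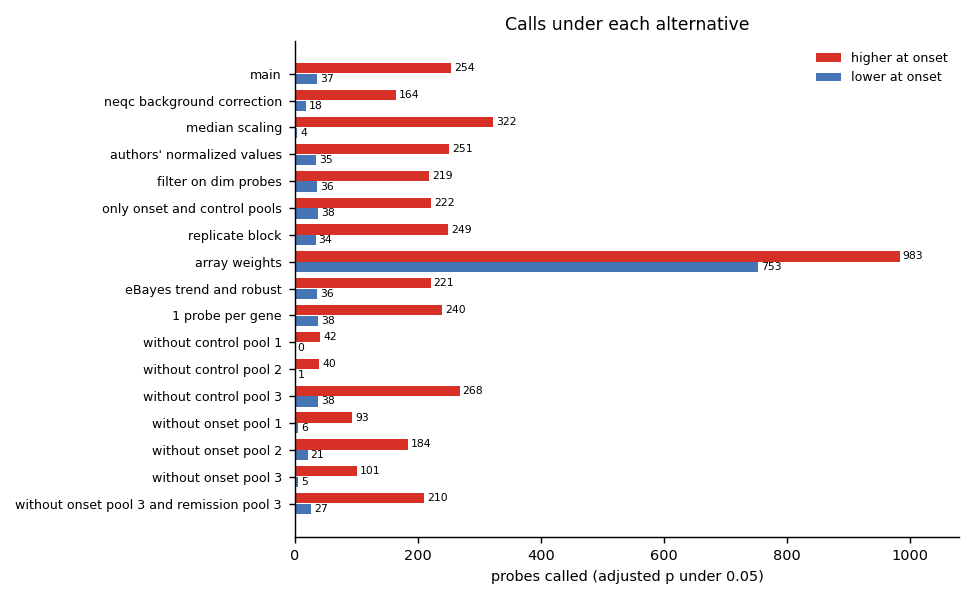
Number of probes called higher (red) and lower (blue) at onset at an adjusted p under 0.05, as reported and under each alternative. Leaving out control pool 1 or 2 leaves 42 and 40 higher probes of 254, and array weights give 983 higher and 753 lower.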

How the data were processed

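The values used were the deposited linear intensity per probe, which the authors read with BeadStudio and left unnormalized, and the deposited detection p-value. The authors also deposited log2 values quantile-normalized in R, which differed from those computed here by at most 0.0888. The amplification kit named in the labels differs from that of the paper, 2 beadchips were used, and which array lay on which chip is not given in the sources used here.

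The analysis used R 4.3.3 and limma 3.58.1. Of 23983 probes 5 duplicates were left out. Log2 signals were quantile-normalized over 11 arrays, and a mean was fitted for each of 4 groups (5.53 prior degrees of freedom), without background correction or filter. Onset was tested against control, two-sided, with Benjamini-Hochberg adjustment at 5% over 23978 probes, of which 3060 have no gene name and 1 has several genes. A gene stands by its brightest probe, and 3691 of 15943 genes have several. A gene that no pool of 1 group showed above background (detection p under 0.01) is given as a lower bound of the fold against the lowest signal above background on each array, and no fold is given where that is under 1.

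Replicates are pools, and the p-values measure the spread between these pools. For single values an exact permutation test of 3 against 3 pools cannot go below 0.1. Named genes are the 15 largest increases and decreases, calls that held without each pool, all genes called lower, up to 4 genes per group with the smallest p, defining markers and genes the paper names, with others said to be chosen later. Kcne2, Chrna4, Nefh, Plek, Serpina3n, Slc9a3r2, Thy1 and the unpassed epithelial and cholesterol genes were also chosen after their values were seen. Members and lists were chosen with earlier results of these data known. The procedure was tested on simulated data. Alternatives were neqc background correction (offset 16), median scaling, the authors' values, a filter on dim probes, only the 6 pools, a replicate block, array weights, trend and robust eBayes, 1 probe per gene, and leaving out pools without normalizing again.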

Additional observations from a re-analysis of the deposited data

How the results depend on the processing

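The counts of probes higher and lower at onset were 254 and 37. They were 164 and 18 with neqc background correction, 322 higher and 4 lower with median scaling, 983 and 753 with array weights, which were 3.82 for control pool 1 and 2.98 for onset pool 3 against 0.43 to 1.37 for the others, and stayed within 1.5 times under the other settings with all pools. Without 1 pool they ranged from 40 to 268 higher and from 0 to 38 lower, and control pools 1 and 2 and onset pools 1 and 3 each moved both counts by more than 1.5 times, and onset pool 2 the lower count (21). With neqc or a trended and robust eBayes, calls were 5 and 5 for the interferon gamma list, 4 and 3 for acute phase, 2 and 2 for interleukin 6 and oncostatin M, 3 and 5 for MHC class I, 3 and 6 for cell death and for immediate early genes and 2 and 5 for interleukin 1 and 18, and complement had 9 under median scaling. Same-numbered control and onset pools did not deviate together (r of -0.058, -0.586 and -0.045). Differently numbered pools reached 0.645 (control 3 with onset 2), 0.608 (control 2 with onset 1) and -0.644 (control 3 with onset 1). With 3 pools in a group these values cannot show whether the numbers mark shared handling. The replicate block gave 249 and 34. The brighter probe of Pgap6, not called at 0.04, ranged from -0.13 (without control pool 2) to 0.18 without 1 pool and was -0.02 without onset pool 2. The cause of these changes was not tested. Low signals limit 98 of the higher probes, none of whose control pools reached the background limit, and for 20 no pool did.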
